A study of Mus musculus with 16 samples.

Results

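Fatty acid synthesis in the liver was followed through 10 named genes, of which 9 had a row among the 19505 genes of the array: the regulators Mlxipl and Thrsp, the enzymes Acly, Acaca, Acacb, Fasn, Me1 and Aacs, and the lipid droplet protein gene Pnpla3. They were chosen by gene symbol in the platform annotation, with the brightest probe set of a gene used, and each of the 9 had 1 probe set. Srebf1, the tenth gene, is not analysed here. RNA was measured on 1-colour arrays in liver biopsies of C57BL/6 mice, 8 from a NASH model (nonalcoholic steatohepatitis, in which a fatty liver is also inflamed) and 8 from controls. The labels name no diet, agent or allele by which the model was made, and give no age, sex, feeding state or time of collection. The labels do not say that each sample is a separate mouse, and the p-values then cover only the spread among these 16 samples, which may be technical. Sample numbers are those of the labels, and the NASH model has a 1a and a 1b.

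The hepatocyte makes fatty acids from sugar and other carbon sources through cytosolic acetyl-CoA. ATP citrate lyase (Acly) releases acetyl-CoA from citrate, the acetyl-CoA carboxylases (Acaca in the cytosol, Acacb at the mitochondrial surface) turn it into malonyl-CoA, and fatty acid synthase (Fasn) builds palmitate with NADPH, part of which malic enzyme (Me1) supplies. Insulin acts on these genes mainly through the sterol regulatory element-binding protein encoded by Srebf1, and sugar acts through ChREBP, the carbohydrate-responsive factor encoded by Mlxipl. Thrsp encodes a small hepatic protein induced by carbohydrate and thyroid hormone that promotes lipogenesis. Aacs activates acetoacetate in the cytosol for the synthesis of lipid, and Pnpla3 is a target of both factors in liver.

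The genes lie on 5 mouse chromosomes in the GRCm38.p6 assembly: Acaca, Acly and Fasn on chromosome 11, Mlxipl, Acacb and Aacs on chromosome 5, Thrsp on chromosome 7, Me1 on chromosome 9 and Pnpla3 on chromosome 15. The bases just upstream of the RefSeq start site are shown for both regulators and for 2 enzymes whose levels were lower in the NASH model. Each run holds the 250 bases before the start, 5′ to 3′ on the strand of the gene. The windows are chr5:135089640-135089889 on the plus strand for Mlxipl, and on the minus strand chr7:97417551-97417800 for Thrsp, chr11:100528001-100528250 for Acly and chr11:120824548-120824797 for Fasn. Capitals mark every match, on either strand, to CCAAT, to the GC box GGGCGG, to the palindromic E-box CACGTG and to the sterol regulatory element core TCACCCCAC.
Mlxipl: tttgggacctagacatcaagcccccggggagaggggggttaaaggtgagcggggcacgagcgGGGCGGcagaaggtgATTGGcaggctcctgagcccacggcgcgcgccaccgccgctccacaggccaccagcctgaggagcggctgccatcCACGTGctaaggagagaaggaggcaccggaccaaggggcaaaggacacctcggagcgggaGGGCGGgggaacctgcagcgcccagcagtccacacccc
Thrsp: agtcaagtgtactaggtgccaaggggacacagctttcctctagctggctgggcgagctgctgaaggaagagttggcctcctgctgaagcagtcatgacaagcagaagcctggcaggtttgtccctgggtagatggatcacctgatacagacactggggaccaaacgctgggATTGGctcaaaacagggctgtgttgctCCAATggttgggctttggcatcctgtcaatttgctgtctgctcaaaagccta
Acly: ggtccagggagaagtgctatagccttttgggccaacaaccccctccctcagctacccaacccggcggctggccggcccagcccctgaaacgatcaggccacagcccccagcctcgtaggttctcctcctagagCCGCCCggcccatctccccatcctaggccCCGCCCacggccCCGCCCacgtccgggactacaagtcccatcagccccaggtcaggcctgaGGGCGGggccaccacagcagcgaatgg
Fasn: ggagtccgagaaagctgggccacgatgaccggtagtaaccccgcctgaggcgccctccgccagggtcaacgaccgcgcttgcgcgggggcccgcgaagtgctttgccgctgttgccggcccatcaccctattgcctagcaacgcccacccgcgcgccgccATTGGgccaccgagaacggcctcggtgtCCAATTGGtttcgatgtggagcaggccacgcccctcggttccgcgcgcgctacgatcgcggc

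Fasn held 3 matches to CCAAT, and Thrsp held 2. In Fasn 2 of the matches, on opposite strands, overlap, and they begin 62 and 59 bases before the start. Acly held 4 GC boxes, and the Mlxipl window had the only CACGTG. Over all 11 RefSeq windows of the 9 genes, 6 held CCAAT, 4 a GC box, 1 the palindromic E-box and 0 the sterol element core. Among 32851 windows of the same length the shares were 33.8%, 32.7%, 6.02% and 0.496%. These matches describe letters, not binding sites. The start sites listed for Acaca, Acacb, Fasn and Pnpla3, and the further ones of Mlxipl and Me1, lie inside the annotated span of the gene.

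Fatty acid synthesis genes were lower in the NASH model livers: 7 of the 9 passed in that direction, at an adjusted p under 0.05 in limma (a moderated test fitted over all genes), and 0 passed in the other. Across all genes 13.4% were called lower and 13.2% higher, 26.6% together. The median log2 difference of the 9 genes was -1.32, against -0.04 over all genes. For 6 of the 7 the level was lower by at least 1 on the log2 scale, which 1.19% of all genes were. The groups did not overlap for 4 of the 9, Mlxipl, Thrsp, Acly and Acaca, and 3.89% of all genes were lower with groups apart in this way (5.65% were higher). In a bulk biopsy, fewer hepatocytes and less RNA per hepatocyte cannot be told apart.

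**Figure D1:**
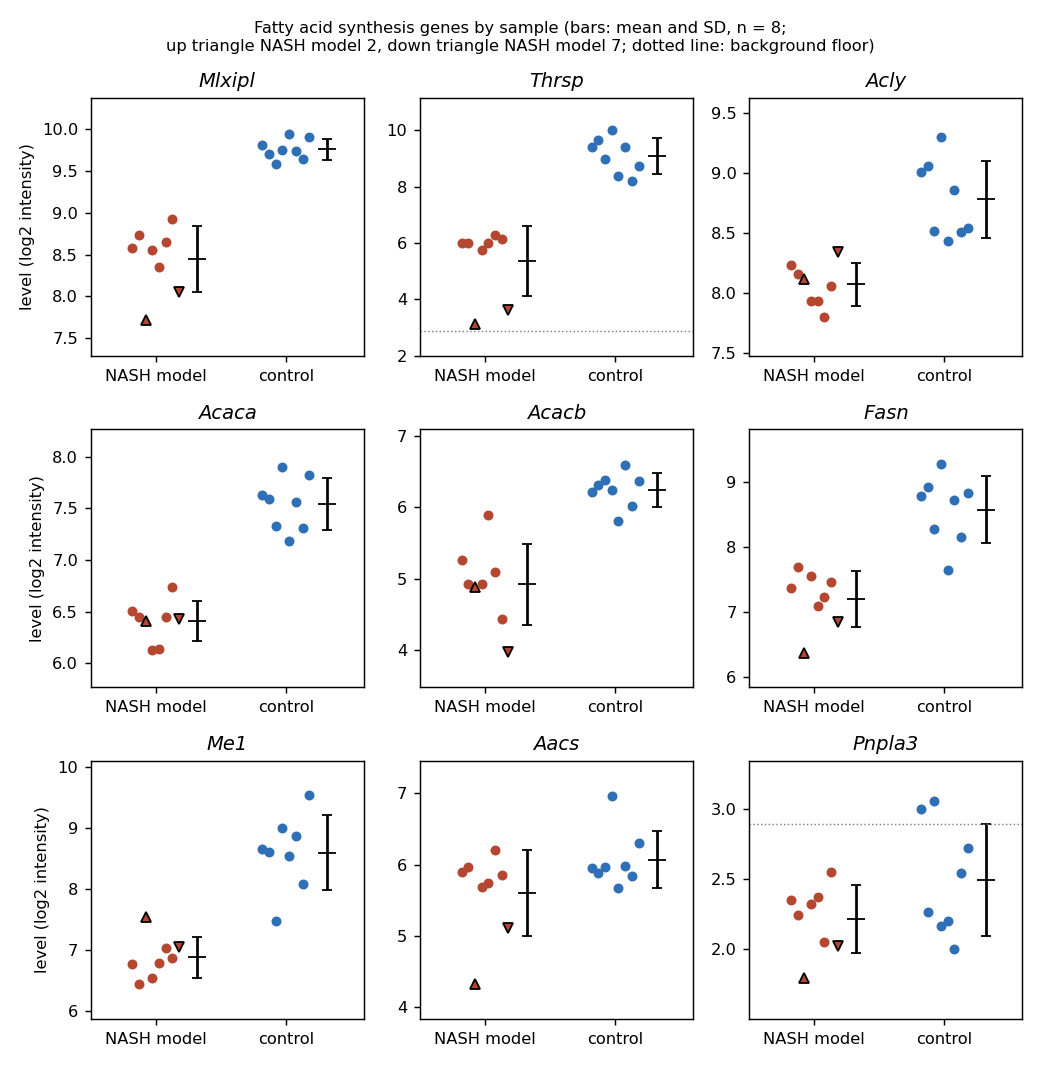
Level of each gene (log2 intensity, y axis) in the 8 NASH model and 8 control samples, one panel a gene, each on its own scale; bars give the mean and SD and the dotted line the background floor of 2.89. The NASH model samples lie below every control for Mlxipl, Thrsp, Acly and Acaca, and overlap the controls most for Aacs and Pnpla3.

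Both measured regulators were lower. Mlxipl, which encodes ChREBP, had log2 levels of 7.72 at the lowest, 8.56 at the median and 8.93 at the highest in NASH model samples, against 9.58, 9.75 and 9.94 in controls. The highest NASH model sample thus lay below the lowest control. Its mean was 8.44 ± 0.39 in the NASH model and 9.76 ± 0.12 in controls (SD, n = 8 each), a log2 difference of -1.32 ± 0.14 SE or 2.49-fold lower (limma adjusted p = 6e-07). Thrsp ran from 3.13 through a median of 6.00 to 6.30 in NASH model samples, against 8.19, 9.20 and 10.02 in controls. It was 13.2-fold lower (log2 difference -3.73 ± 0.43 SE, 95% interval -4.62 to -2.83, limma adjusted p = 1.7e-06), and 4 of the 19505 genes had a lower difference. Its 2 lowest samples, NASH model 2 at 3.13 and NASH model 7 at 3.64, came close to the background floor of 2.89, the 95th percentile of 1412 olfactory and vomeronasal receptor genes. Without both, the fall was 8.34-fold (-3.06 ± 0.24 SE, limma adjusted p = 7e-08).

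The enzymes that make acetyl-CoA and malonyl-CoA were lower. Acly had 7.80, 8.09 and 8.34 (lowest, median, highest log2 level) in NASH model samples and 8.43, 8.70 and 9.30 in controls. The groups did not overlap, by a narrow margin, and the difference of -0.71 ± 0.13 SE (1.63-fold lower, limma adjusted p = 0.00029) was the smallest among the 7. Acaca, the cytosolic carboxylase, had 6.13, 6.44 and 6.74 in NASH model samples against 7.18, 7.58 and 7.90 in controls, a 2.20-fold lower level (-1.14 ± 0.12 SE, limma adjusted p = 3.8e-07). Acacb, whose malonyl-CoA restrains fatty acid entry into mitochondria, had 3.97, 4.92 and 5.90 in NASH model samples against 5.81, 6.28 and 6.60 in controls. In 7 of 8 NASH model samples it was below every control, and NASH model 4, at 5.90, was the exception. The difference was -1.32 ± 0.20 SE, 2.49-fold lower (limma adjusted p = 3.7e-05).

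Fasn and Me1, the synthase and a source of its NADPH, were also lower. Fasn had 6.38, 7.31 and 7.69 (lowest, median, highest log2 level) in NASH model samples, against 7.65, 8.76 and 9.27 in controls. Only NASH model 1b, at 7.69, reached the lowest control, which was control 6. The difference was -1.37 ± 0.21 SE, 2.58-fold lower (limma adjusted p = 5.9e-05). Me1 had 6.44, 6.83 and 7.54 in NASH model samples, against 7.48, 8.63 and 9.54 in controls. The overlap again came from 1 sample a group, NASH model 2 at 7.54 and control 4 at 7.48. At -1.71 ± 0.22 SE (3.28-fold lower, limma adjusted p = 7.3e-06), Me1 had the largest difference of the 6 enzymes. Ranked among all genes, the 7 differences lay within the lowest 2.91%, where Acly stood, and Thrsp within the lowest 0.0256%.

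Aacs and Pnpla3 did not pass. Aacs had 4.33, 5.80 and 6.21 in NASH model samples, against 5.67, 5.96 and 6.96 in controls. The difference was -0.47 ± 0.23 SE, with a 95% interval of -0.95 to 0.01 (limma adjusted p = 0.14). The 2 lowest values, 4.33 in NASH model 2 and 5.11 in NASH model 7, lay below all controls, while the other 6 NASH model samples, at 5.68 to 6.21, lay within the range of the controls. Without NASH model 2 and 7 the difference was -0.18 ± 0.17 SE. Pnpla3 had 1.79, 2.28 and 2.55 in NASH model samples, against 2.0, 2.40 and 3.05 in controls. All NASH model samples lay below the floor and only 2 of 8 controls lay above it, so no fold is given and a difference was not detectable at this signal (limma adjusted p = 0.21).

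**Figure D2:**
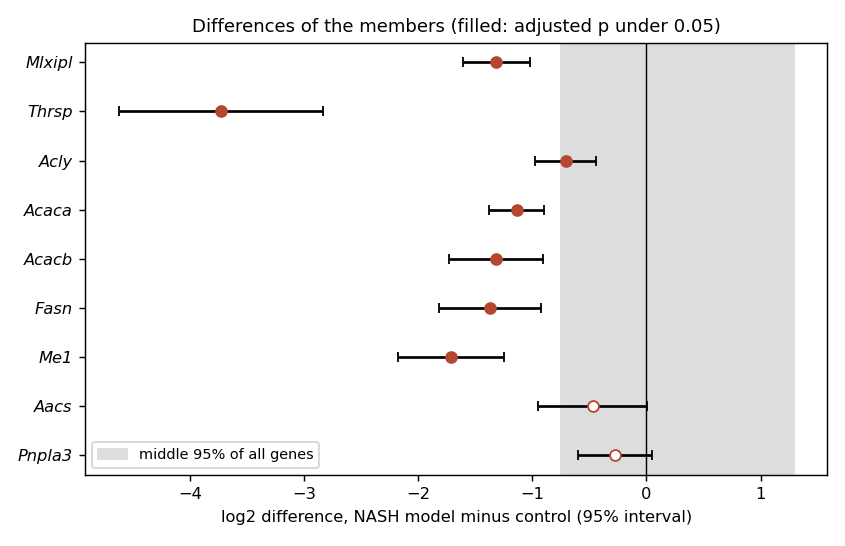
Log2 difference of each gene, NASH model minus control (x axis), with its 95% interval; filled points passed at adjusted p under 0.05, and the grey band holds the middle 95% of all genes, from -0.75 to 1.29. Of the 7 filled points only Acly, at -0.71, lies inside the band, and Thrsp lies farthest out.

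Some pairs of members changed by unequal amounts. This was tested on the log2 ratio of 2 genes within each sample, by an exact two-sided permutation test adjusted over 7 pairs, of which the 2 with a regulator were chosen after the data were seen. The Thrsp to Fasn ratio ran from -3.25 to -0.94 in NASH model samples and from -0.10 to 0.75 in controls. The groups were apart, and the ratio was lower in the NASH model, with a difference of -2.36 ± 0.34 SE (exact adjusted p = 0.0011). The Acly to Fasn ratio was 0.86 ± 0.50 in NASH model samples and 0.20 ± 0.30 in controls (SD, n = 8 each), a difference of 0.66 ± 0.21 SE (exact adjusted p = 0.0076), so Acly fell less than Fasn. Without NASH model 2 and 7, which had the highest ratios of all samples (1.74 and 1.49), it was 0.41 (exact adjusted p = 0.037). Aacs also stood apart from Fasn, with ratios of -2.05 to -1.03 in NASH model samples and -3.04 to -1.97 in controls (0.90 ± 0.17 SE, exact adjusted p = 0.0011).

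For the other 4 pairs no unequal change was detected. The ratio of Mlxipl to Fasn differed by 0.05 ± 0.20 SE (exact adjusted p = 0.81), Acaca to Fasn by 0.23 ± 0.19 (0.43), Acaca to Acacb by 0.18 ± 0.26 (0.57) and Me1 to Fasn by -0.35 ± 0.33 (0.44). NASH model 2 had the highest Me1 and the lowest Fasn of its group. NASH model 7 had the second highest Me1 and the second lowest Fasn, so leaving out these samples widens the difference by itself. Without NASH model 2 the Me1 to Fasn difference was -0.56 (exact adjusted p = 0.11). Without NASH model 2 and 7 it was -0.68 (exact adjusted p = 0.0495). Of 18 alternative settings the other 17 did not pass, so no unequal change of Me1 and Fasn is drawn from this 1. The planned pairs with Srebf1 were not run.

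**Figure D3:**
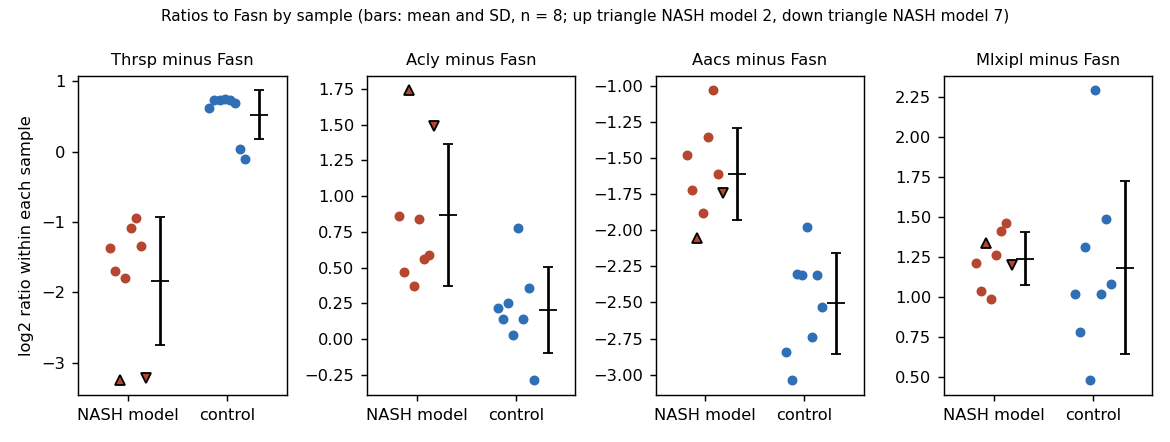
Log2 ratio of Thrsp, Acly, Aacs and Mlxipl to Fasn within each sample (y axis), for 8 NASH model and 8 control samples; bars give the mean and SD. The Thrsp ratio is lower in every NASH model sample than in any control, the Acly and Aacs ratios are higher on average (0.66 and 0.90), and the Mlxipl ratios overlap.

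Within the NASH model group the members did not vary as 1 block. In 4 of the 8 members above the floor in this group, Mlxipl, Thrsp, Fasn and Aacs, NASH model 2 was the lowest sample and NASH model 7 the second lowest. Pnpla3 was below the floor in all 8 samples, where ranks carry no information. For Thrsp these 2 samples averaged 3.38 while the other 6 averaged 6.03, and for Mlxipl they averaged 7.89 while the other 6 averaged 8.63. Acacb went partly with them: it was lowest in NASH model 7 (3.97) and averaged 4.43 in the 2 samples and 5.09 in the other 6, with NASH model 2 at 4.89. Acly, Acaca and Me1 did not share this pattern. Acly averaged 8.23 in the 2 samples and 8.02 in the other 6, Acaca 6.42 and 6.40, and Me1 was highest in NASH model 2. Without the 2 samples 7 of 9 members were lower, with 10.8% of all genes called lower in that fit. Of 7 cholangiocyte markers 4 were higher and 0 lower in the NASH model as a whole. Their summed log2 level was 8.58 in NASH model 2 and 9.20 in NASH model 7, the group ranging from 6.69 to 9.20. The controls ranged from 6.80 to 7.64. NASH model 3, at 8.48, came close to NASH model 2, yet its Thrsp level was 5.77 against 3.13. NASH model 2 and 7 were also highest in summed adipocyte markers (8.31 and 8.44) and lipid-associated macrophage markers (12.6 and 12.69). In stellate cell and myofibroblast markers NASH model 7 was highest, at 10.75. NASH model 2, at 10.49, lay below NASH model 3, at 10.62, and NASH model 1a, at 10.53. The part of these markers in the spread was not tested.

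**Figure D4:**
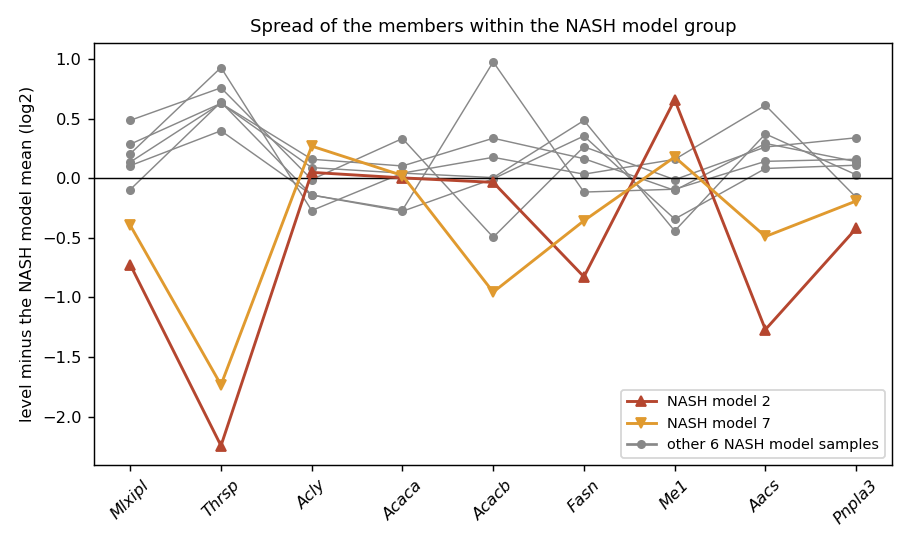
Level of each gene in the 8 NASH model samples as a difference from the mean of the group (log2, y axis), with NASH model 2 and 7 in colour and the other 6 samples in grey. The coloured samples are lowest for Mlxipl, Thrsp, Fasn and Aacs, near the mean for Acaca, and above it for Acly and Me1. For Acacb NASH model 7 is lowest and NASH model 2 near the mean, and all Pnpla3 values lie below the background floor.

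Among controls, another pair of samples was low. Control 6 was lowest and control 9 second lowest in Acly, Acaca, Acacb, Fasn and Aacs, 5 of 9 genes, and control 5 was highest in Thrsp, Acly, Acaca, Fasn and Aacs. Relations of Mlxipl and of Thrsp with the other members were computed within each group of 8, 30 relations in all, with Thrsp added in place of Srebf1 after the data were seen. Across the 8 controls Thrsp followed Acly (Pearson r = 0.93, exact permutation p = 0.0014, adjusted p = 0.021; Spearman rho = 0.93, p = 0.0022, adjusted p = 0.067). Without the 2 samples farthest from the median of Thrsp, controls 6 and 9, r was 0.96. Thrsp also followed Fasn by r (0.84, exact permutation p = 0.0087, adjusted p = 0.043) but not by rho after adjustment (0.81, p = 0.022, adjusted p = 0.16), and r was 0.69 without controls 6 and 9. Mlxipl passed with 0 of 8 genes in controls, where its log2 levels spanned only 0.36. Without controls 6 and 10, the 2 farthest from its median, its r ran from -0.30 (Pnpla3) to 0.88 (Me1). That r was 0.79 with Acly, 0.77 with Acaca, 0.74 with Fasn and 0.09 with Acacb, and was not tested. Over all 8 controls r was -0.12 with Acly, 0.18 with Acaca and -0.1 with Fasn. There it ran from -0.34 (Acacb) to 0.72 (Me1). Control 6, left out of the first values, had the highest Mlxipl of the controls (9.94). Since NASH model 2 and 7 stand apart, no r over all 8 NASH model samples is given. Over the other 6, 0 of 15 relations passed by exact permutation (2 had an unadjusted p for r under 0.05). With 6 samples even the r of -0.92 of Mlxipl with Acacb had an exact permutation adjusted p of 0.22. The absence of a passing relation there therefore says little.

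The circadian clock and feeding also set these genes in liver, and neither is in the labels. Of 17 clock genes 6 were lower and 5 higher, led by Arntl (-1.79 ± 0.35 SE), Ciart (1.48 ± 0.43) and Nfil3 (-1.36 ± 0.19). A clock score was read from these genes along the main axis of their spread within groups. It lay between 1.06 and 2.38 in NASH model samples and between -3.62 and 2.54 in controls, and with no time in the labels, time of collection and group cannot be told apart. On this score control 5, at 2.54, lay above all NASH model samples. The other controls lay below all of them, at 0.59 or less. With that score as a covariate, chosen after the data were seen, 8 of 9 members were lower, since Aacs passed as well (-1.01 ± 0.30 SE, limma adjusted p = 0.03). Control 5 also had the highest Aacs level of all samples (6.96), and the added call was not tested without it. Over all genes 1254 of 19505 were lower with this covariate, against 2619 in the main fit. Thrsp had -4.40 and Fasn -1.78 in that fit. Of 9 fasting-responsive genes 5 were higher and 0 lower, or 3 higher without NASH model 2 and 7. They were led by the kinase gene Pdk4 (1.98 ± 0.41 SE, limma adjusted p = 0.001), the hydroxylase gene Cyp4a14 (1.93 ± 0.60, 0.021) and the hormone gene Fgf21 (1.65 ± 0.37, 0.002), and their part in the member values was not tested.

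Many sugar-responsive genes were lower, as Mlxipl was. Of 10 measured ChREBP partner and sugar-responsive genes 7 were lower and 1 higher, with a median log2 difference of -0.83. For this and the following lists, the shares over all genes were 13.4% lower and 13.2% higher. The glycolytic kinase gene Pklr had log2 levels of 6.72, 7.27 and 7.73 (lowest, median, highest) in NASH model samples and 8.76, 9.22 and 9.58 in controls. Its groups did not overlap, and its mean was 7.28 ± 0.31 in the NASH model against 9.21 ± 0.28 in controls (SD, n = 8 each), a difference of -1.93 ± 0.14 SE (limma adjusted p = 3.7e-09). Khk, which starts fructose breakdown, differed by -1.55 ± 0.13 (limma adjusted p = 2e-08), and G6pc, the last step of glucose release, by -1.39 ± 0.25 (0.00028). The gene of this list that rose was Txnip, named after its value was seen, a sugar-induced inhibitor of thioredoxin (0.92 ± 0.25, 0.0087), and 0 were higher with the clock score that may differ between groups as a covariate. Mlx, the dimer partner of ChREBP and likewise named afterwards, differed by -0.52 ± 0.08 (4.4e-05).

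Genes that act on Srebf1 or beside it were measured in its place. Of 10 genes of sterol-regulated processing and LXR signalling 4 were lower and 1 higher (median -0.22), or 0 higher with arrays centred on their medians and with that clock score. Insig2, which holds the factor in the endoplasmic reticulum, differed by -1.58 ± 0.24 SE (limma adjusted p = 3.8e-05), Scap, its escort, by -0.62 ± 0.13 (0.00095) and Nr1h3, the gene of LXR alpha, by -0.43 ± 0.11 (0.0061). The higher gene, named after its value was seen, was Srebf2, which encodes a related factor (0.39 ± 0.12, limma adjusted p = 0.021). Of 13 insulin signalling genes 3 were lower, 2 higher and 8 did not pass (median -0.10). Over all genes 13.4% were called lower and 13.2% higher. The 3 lower insulin signalling genes were the receptor substrate Irs1 (-0.66 ± 0.16), Foxo1 (-0.54 ± 0.14) and the kinase Akt2 (-0.34 ± 0.09). Over the alternative fits the lower count ran from 1 with the clock score and 2 with spike-in centring to 5 with arrays centred on their medians. The higher count was 0 with median centring, with the clock score and without NASH model 2 and 7. Cholesterol synthesis genes, the targets of the related factor encoded by Srebf2, gave 0 lower and 0 higher of 10 by limma (median 0.07). At an unadjusted p under 0.05, 1 was lower and 1 higher. The counts moved both ways: 3 were lower with the clock score and 1 with median centring, while 2 were higher without NASH model 2 and 7 and 1 with spike-in centring.

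Carbon and NADPH supply went both ways. Of 12 such genes 5 were higher and 3 lower (median 0.04). Acss2, which makes cytosolic acetyl-CoA from acetate, was 2.47-fold lower (-1.30 ± 0.20 SE, limma adjusted p = 6e-05), with the lowest levels in NASH model 2 (5.78) and 7 (6.09). Idh2, the mitochondrial NADPH-forming isocitrate dehydrogenase, was 2.80-fold higher (1.49 ± 0.08, 4.8e-11), and the pyruvate carrier subunit Mpc1 was higher by 0.91 ± 0.11 (3e-06). Of 9 genes that act on acetyl-CoA carboxylase, 3 were lower and 2 higher (median -0.09). Mid1ip1, which encodes the Thrsp-related protein that helps the carboxylase polymerise, differed by -0.64 ± 0.14 (0.0021). The malonyl-CoA decarboxylase gene Mlycd differed by -0.38 ± 0.12 (0.017), and Prkab2, a subunit of the kinase that inhibits the carboxylase, by 0.82 ± 0.22 (0.0072) with 7 of 8 controls below the floor. With deposited values centred on the spike-in controls 0 of the 9 were lower, with the clock score 1 was lower and 1 higher, and without NASH model 2 and 7 only 1 was higher.

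Downstream of Fasn, fatty acids are lengthened, desaturated and built into triglyceride. Of 11 elongation and desaturation genes 4 were lower and 2 higher (median -0.08), or 1 higher with the clock score. Elovl3, an elongase of very long saturated chains, had 2.07, 4.63 and 5.60 (lowest, median, highest log2 level) in NASH model samples against 8.63, 10.17 and 10.97 in controls (-5.79 ± 0.47 SE, limma adjusted p = 2e-08). Like Thrsp it was lowest in NASH model 2 and 7, at 2.07 and 2.19, below the floor. Scd1, the main hepatic desaturase, had 8.05, 9.23 and 9.73 in NASH model samples against 11.68, 12.02 and 12.23 in controls (-2.87 ± 0.19, 9.5e-10). NASH model 7, at 9.73, was the highest sample of its group, so Scd1 did not share that spread. Elovl6, which extends palmitate, differed by -1.36 ± 0.20 (3.1e-05) with groups that did not overlap. Of 8 triglyceride assembly genes 4 were lower and 1 higher (median -0.18), or 2 lower without NASH model 2 and 7, with values as deposited, with spike-in centring and with the clock score. The acyltransferase gene Agpat2 differed by -0.98 ± 0.10, Lpin1 by -0.80 ± 0.28 (limma adjusted p = 0.04) and Lpin2 by 0.58 ± 0.17 (0.016), a call lost with the clock score, where 0 were higher.

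Of 4 measured ketone body enzymes other than Aacs, 2 were higher and 1 lower (median 0.41). Oxct1, the mitochondrial enzyme that activates acetoacetate for oxidation, was higher (5.70 ± 0.23 in the NASH model and 2.83 ± 0.38 in controls, SD, n = 8 each; limma adjusted p = 3e-11). Since 4 of 8 controls lay below the floor, no fold is given. Bdh1 was higher by 0.63 ± 0.09 SE. The lower call, Bdh2 (-0.36 ± 0.13, limma adjusted p = 0.0499), did not pass in any of the 7 other fits run for the list. Lipid-associated macrophage markers were higher in 7 of 7 genes, with a summed log2 level of 12.11 to 12.69 in NASH model samples and 7.28 to 7.64 in controls. Their part in the Oxct1 value was not tested. Stellate cell and myofibroblast markers were higher in 9 of 10 genes, with a summed level of 9.93 to 10.75 in NASH model samples and 8.34 to 8.87 in controls.

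**Figure D5:**
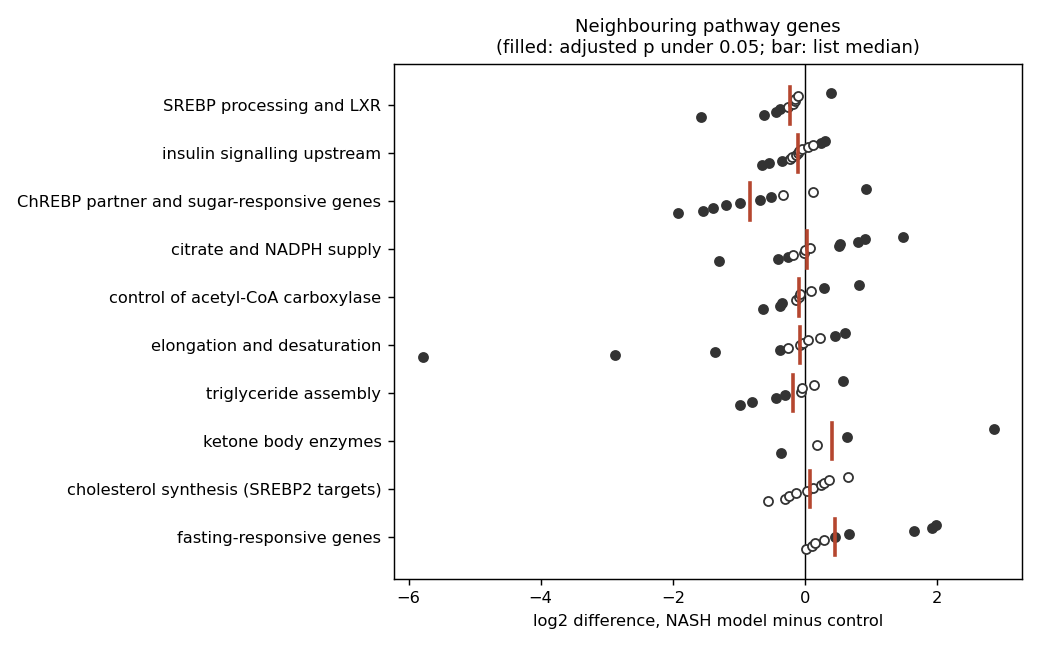
Log2 difference, NASH model minus control (x axis), of each measured gene in 10 lists around fatty acid synthesis; filled points passed at adjusted p under 0.05 and the red bar is the median of the list. The sugar-responsive list lies lowest, at a median of -0.83, and the cholesterol synthesis list has no filled point.

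Hepatocyte markers were lower in 5 of 13 genes and higher in 0, with a median of 0.01. They were led by F7 (-0.84 ± 0.11 SE), Foxa2 (-0.76 ± 0.14) and Cebpa (-0.67 ± 0.10), each with groups that did not overlap. The summed log2 level was 15.23 to 15.30 in NASH model samples and 15.20 to 15.35 in controls. That sum rests mostly on the brightest markers, such as Alb and Apoa1, named after their values were seen. Their control means, 12.62 and 12.43, lie near the highest value of the array, where a loss may not show. The sum therefore cannot tell whether hepatocyte content changed. Of 8 adipocyte markers 2 were higher and 1 lower. The defining genes Adipoq and Lep were below the floor in all 16 samples. Fabp4 was higher by 2.05 ± 0.22 on the log2 scale. Aqp7 was below the floor in 8 of 8 controls (means of 5.22 in the NASH model and 2.36 in controls) and at least 5.02-fold higher, with the floor in place of those controls. Retn was below the floor in 8 of 8 NASH model samples (2.5 in the NASH model and 3.04 in controls) and at least 1.11-fold lower, a call lost without NASH model 2 and 7 and with spike-in centring. The summed log2 level was 7.65 to 8.44 in NASH model samples and 6.73 to 7.18 in controls. The part of these markers in the member values was not tested.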

How the data were processed

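Total RNA from 16 liver biopsies carried a biotin label after the Affymetrix protocol, per the labels. The authors deposited log2 values for 29129 probe sets (0.62 to 12.7, column medians 3.52 to 3.66). The summarising method and the genome build of the array are not given in the sources used here. The platform annotation gives 1 gene symbol for 19572 probe sets, and 9557 are unnamed here. Of the list genes 24 had no row and are not analysed here, Srebf1 among them.

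Values were quantile-normalized over all probe sets (largest shift 0.16), and the brightest probe set was kept for each of 19505 genes. NASH model and control samples were compared with limma 3.58.1 in R 4.3.3 (lmFit and eBayes, group only, two-sided), with Benjamini-Hochberg adjustment over all genes and calls at an adjusted p under 0.05. Pairs and relations were tested by exact permutation in scipy 1.17.1. Dim genes were not filtered. The number of arrays limits the precision. The steps were tested on simulated data.

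The members, lists and alternatives were chosen with earlier results of these data known. Named are all members, up to 3 called genes of a list with the largest differences, and the 5 genes a group most like the mean of the members; others are said to be named afterwards. The labels do not say whether shared replicate numbers pair the samples, and the main fit used no pairing. Promoter sequences and gene positions are from RefSeq, GRCm38.p6.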

Additional observations from a re-analysis of the deposited data

How the results depend on the processing

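The 7 lower calls among the members (Mlxipl, Thrsp, Acly, Acaca, Acacb, Fasn and Me1) passed in the same direction under all 31 alternative fits: other scalings, the filter on dim genes, the mean of probe sets, other limma options, the exact permutation test, omitted samples, both clock scores and the replicate block. Not all of these could move a member. The mean of probe sets leaves the value of a member as it was, since each has 1 probe set. A clock score centred within each group can change the error of a difference but not the difference. Aacs did not pass in 30 of the 31 and passed with the clock score that may differ between groups (-1.01). Pnpla3 passed in none of its 30, as the filter removed it. The exact test was adjusted over all genes in place of the members alone, and its adjusted p was 0.0016 to 0.0027 for the 7 genes. Samples with the same number did not deviate together over all genes (correlations of -0.03 to 0.06). The labels do not say whether shared numbers pair the samples, and such correlations cannot exclude a link in fewer genes. With the replicate block over the 6 shared numbers 1683 genes were lower, against 1962 without that term and 2619 with all samples. All genes called lower numbered 1179 with deposited values centred on the spike-in controls, and with the clock score that may differ between groups 1254 were lower and 1523 higher, against 2577 higher in the main analysis; the cause was not tested. Genes higher made up 49.6% of the calls, or 39.2% with median centring and 73.7% with spike-in centring. The median of all genes was -0.12 with median centring and 0.06 with spike-in centring. Signal over background limits Pnpla3, which lies below the floor in all samples but 2 controls.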

Other observations

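The genes whose spread was most like the mean of the 9 members were found by Pearson r with the mean of their standardised levels, within each group of 8 and with no test. All 9 members counted equally in that mean, although they did not vary as 1 block in the NASH model group. Pnpla3, below the floor in all 8 NASH model samples, counted as well. In the NASH model group the 5 were picked among 2920 bright and variable genes on all 8 samples, but since NASH model 2 and 7 stand apart, r is given over the other 6. They were Kcnk5, a potassium channel gene (r = 0.97), C2cd2 (0.79), the retinaldehyde dehydrogenase gene Aldh1a1 (0.87), Myorg (0.86) and the natriuretic peptide receptor gene Npr2 (0.72). Of the 5, 3 were lower in the NASH model by limma, Kcnk5 (-0.83, adjusted p = 0.0019), Npr2 (-0.91, 0.00026) and Myorg (-0.59, 0.0065), Aldh1a1 was higher (0.37, 0.03) and C2cd2 did not pass (-0.35, 0.0547).

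Within the controls the 5 most alike, of 2922 searched, were Dhrs7 (r = 0.97, and 0.96 without controls 6 and 9), Tctn3 (0.95 and 0.87), Dclk3 (0.93 and 0.80), the cystine transporter gene Slc7a11 (0.92 and 0.89) and Ccdc120 (0.92 and 0.85). The last 2 were higher in the NASH model (1.82 and 1.67, limma adjusted p = 2e-08 and 7.5e-08), opposite to the members, and the other 3 did not pass. These values of r are descriptions, the highest among the many genes searched.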
